A study of Plutella xylostella with 12 samples.

Results

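The comparison described is that of female larvae of the diamondback moth, Plutella xylostella, at 10 °C and at 25 °C. It rests on 6 of the 12 RNA-seq libraries of the series, the 3 labelled female at 10 °C (replicates 1, 2 and 3) and the 3 labelled female at 25 °C (replicates 1, 2 and 4), and it was made across all genes from total gene reads. The other 6 libraries are labelled male, 3 at each temperature. Larvae of a laboratory strain fed cabbage leaves were kept at 25 °C up to the early part of the third instar. They then stayed at 25 °C or were moved to 10 °C until the middle of the fourth instar, the last larval stage. Each library is a pool of 8 whole larvae, so gut, fat body, muscle, nerve and gonad are measured together. The labels give no age in days, so the groups were matched by stage and not by time. Apart from temperature, the labels give both groups the same strain, food and stage.

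Insects cannot hold their body temperature, and cooling slows feeding, growth and moulting together. Larvae of moths are known to answer temperature stress with chaperones such as the heat shock proteins, which refold damaged proteins, with changes in energy metabolism, and with changes in the storage proteins that the fat body lays up before metamorphosis. The gut of a cabbage-feeding larva makes serine proteases that digest leaf protein and a sulfatase that disarms the glucosinolates of the plant.

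The pools of one group differed strongly, and 2 labelled female held RNA of genes that are high in male larvae. Total gene reads ran from 10183278 to 16885555 in the 6 female libraries, and between 10680 and 14518 genes had at least 10 reads. A set of 374 male-high genes was drawn from the 25 °C libraries alone, as genes at least 16-fold higher in males at an edgeR adjusted p below 0.05 and with at least 5 CPM (reads scaled to a common library size) in males. Set against the male 25 °C mean for each gene, the median gene of this set stood at 0.0%, 8.6% and 33.0% in female 10 °C replicates 1, 2 and 3. It stood at 0.0%, 2.12% and 0.0% in female 25 °C replicates 1, 2 and 4. In males it stood at 33.4%, 55.3% and 0.134% in 10 °C replicates 1, 2 and 3, and between 98.4% and 103% in the 25 °C pools. The library labelled male 10 °C replicate 3 thus goes against its label, with 28 of the 374 genes above 1 CPM, and female 10 °C replicate 3 stands close to male 10 °C replicate 1. Whether pools were exchanged or mixed was not tested. Of the 374 genes, 18, 278 and 362 were above 1 CPM in female 10 °C replicates 1, 2 and 3, and 23, 92 and 32 in female 25 °C replicates 1, 2 and 4. Because the female 25 °C libraries served as the low group in choosing these genes, their change with temperature (median log2 3.82) is a description with no test. Counts of calls, the called genes and the gene lists are given below also without female 10 °C replicates 2 and 3, and the part of male tissue in any of them was not tested unless a value is given.

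Across 15027 genes tested, 6 were lower at 10 °C in female larvae, which is 0.0399% of them, and 0 were higher, which is 0.0% (quasi-likelihood test of edgeR, threshold 0.05 on p adjusted over all genes). An unadjusted p below 0.05 was reached by 2587 genes, 971 of them higher and 1616 lower. DESeq2 called 217 genes higher and 525 lower, and limma voom called 670 and 938. Fitted in edgeR on the female libraries alone, 0 of 13930 genes passed, with 1532 at an unadjusted p below 0.05, and the 6 genes named next had adjusted p from 0.17 to 0.275. The smallest edgeR adjusted p among genes higher at 10 °C was 0.126. The 6 genes are LOC105381203, LOC105386543, LOC105385535, LOC105387993, LOC105383572 and LOC105395943. No symbol or product name could be matched to any of them, so no role is given. In whole-body RNA, fewer cells of a type and less RNA per cell cannot be told apart. Without female 10 °C replicates 2 and 3 the count was 0 of 15944 genes, with 356 at an unadjusted p below 0.05, and the lone remaining 10 °C library was then assumed to vary like the other groups.

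**Figure D1:**
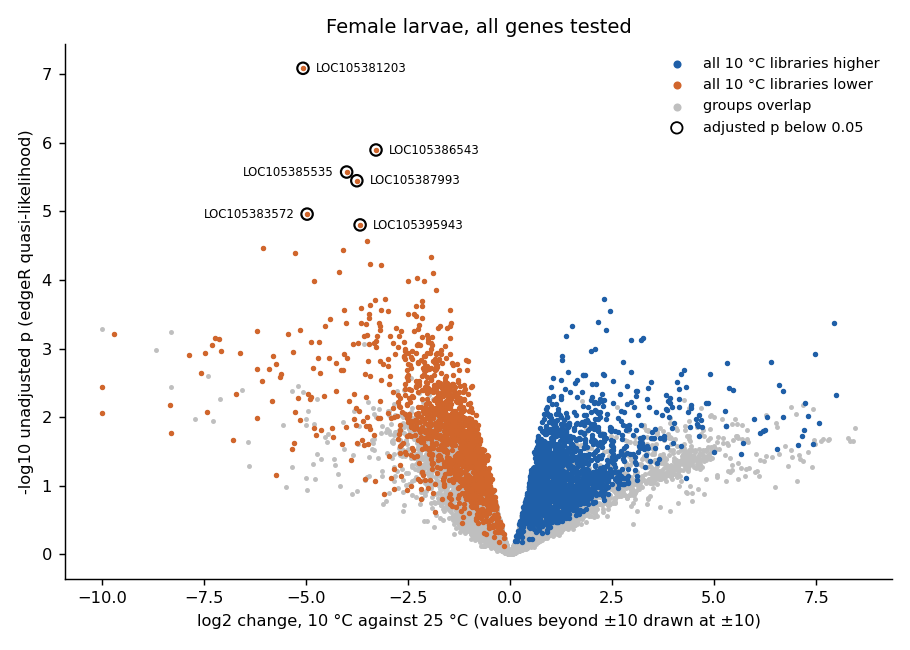
Each point is a gene tested in female larvae, with the log2 change at 10 °C against 25 °C on the x axis and the -log10 of the unadjusted edgeR p on the y axis. Blue and orange points are genes whose 10 °C libraries all lie above or all lie below the 25 °C libraries, grey points are genes whose groups overlap, and rings mark the 6 genes past the adjusted threshold, all on the lower side.

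LOC105381203 had the smallest p of the 6. Its level was 1.54, 1.13 and 1.11 CPM in 10 °C replicates 1, 2 and 3, and 42.1, 24.1 and 63.0 CPM in 25 °C replicates 1, 2 and 4. The groups are far apart, the 10 °C pools lie close together and 25 °C replicate 2 is the lowest of the warm pools. The mean was 1.26 ± 0.245 CPM at 10 °C and 43.1 ± 19.5 CPM at 25 °C (SD, n = 3), a log2 change of -5.08 ± 0.44 (SE, edgeR adjusted p = 0.00124). The deposited tables place it on scaffold NW_011952052 from 1220204 to 1226260, on the plus strand, as a model of 4 exons and 1641 bp of exon. Although the model is spliced, 0 of its 1325 exon reads at 25 °C and 1 of its 65 at 10 °C crossed an exon junction. Over all nuclear genes, 50.8% to 52.6% of exon reads in the female libraries crossed a junction. Of its reads, 99.1% mapped uniquely. The next gene, LOC105381204, begins 6261 bp further on and was at 0.154, 0.0 and 0.167 CPM in the 10 °C pools and 4.27, 4.13 and 0.504 CPM in the 25 °C pools. These values also do not overlap, but at a log2 change of -4.68 ± 1.05 the gene did not pass (edgeR adjusted p = 0.134).

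LOC105385535 had the most even level at 25 °C. It was at 7.83, 2.33 and 3.66 CPM in 10 °C replicates 1, 2 and 3 and at 75.6, 70.6 and 76.6 CPM in 25 °C replicates 1, 2 and 4. The warm pools were nearly equal under this scaling, also replicate 4, which differed from the other warm pools in many other genes. On library totals alone they were at 65.1, 82.7 and 45.0 CPM, with replicate 4 the lowest. LOC105386543 was the more even gene there, at 19.2, 17.9 and 19.1 CPM. The level of LOC105385535 fell by 4.01 ± 0.48 on the log2 scale (edgeR adjusted p = 0.0134), from 74.3 ± 3.22 to 4.61 ± 2.87 CPM (SD, n = 3). It is a model of 17 exons and 3719 bp of exon on the minus strand of NW_011952138, from 22154 to 29872, and 233 of 251 exon reads at 10 °C and 2294 of 2557 at 25 °C crossed a junction. Most of its exon reads thus came from spliced RNA at both temperatures, and 98.2% of its reads mapped uniquely.

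LOC105395943 was the most abundant of the 6 on a length-corrected scale. It was at 19.2, 5.66 and 9.94 CPM in the 10 °C pools and at 120, 86.8 and 242 CPM in the 25 °C pools. Cold replicate 1 was the highest of the cold pools and still lay below each warm pool. The gene fell by 3.68 ± 0.52 on the log2 scale (edgeR adjusted p = 0.0397), from 149 ± 81.7 to 11.6 ± 6.93 CPM (SD, n = 3). It has 16 exons on the minus strand of NW_011952749, from 36366 to 43360, is listed as protein coding, and had junctions in 276 of 632 exon reads at 10 °C and 1317 of 4507 at 25 °C. In warm replicates 1, 2 and 4 the counts of this gene were 376 of 1078, 762 of 1583 and 179 of 1846, so replicate 4 had the lowest share. In the deposited TPM, a transcript level corrected for length, its mean was 37.0 at 25 °C and 5.66 at 10 °C. Among the other 5 genes, mean TPM lay between 9.04 for LOC105383572 and 22.7 for LOC105381203 at 25 °C, and between 0.536 and 2.83 at 10 °C.

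LOC105387993 and a gene beside it were both low in the cold pools. LOC105387993 was at 1.70, 4.41 and 3.27 CPM in 10 °C replicates 1, 2 and 3 and at 28.0, 39.6 and 59.7 CPM in 25 °C replicates 1, 2 and 4. Here cold replicate 1, in which the male-high genes had a median of 0.0, was the lowest of all pools. The log2 change was -3.76 ± 0.46 (edgeR adjusted p = 0.0135), from 42.5 ± 16 to 3.13 ± 1.36 CPM (SD, n = 3). It lies on NW_011952205 from 283580 to 287689, on the plus strand, with 6 exons and 2684 bp of exon. Of its exon reads at 10 °C, 2 of 33, 13 of 67 and 0 of 56 crossed a junction in replicates 1, 2 and 3, and at 25 °C 0 of 1448 did. Nearly all its junction reads were thus in cold replicate 2. LOC105387992, a single-exon gene 100 bp away on the other strand, was at 83.3, 137 and 135 CPM at 10 °C and 304, 696 and 443 CPM at 25 °C. Its groups do not overlap either, and its log2 change of -2.02 did not pass (edgeR adjusted p = 0.134). The use of strand in counting is unknown here, so reads at the ends of this pair cannot be assigned with certainty.

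LOC105383572 was close to the limit of detection in the cold. It had 7, 3 and 5 reads in 10 °C replicates 1, 2 and 3, and 58, 137 and 103 reads in 25 °C replicates 1, 2 and 4. These are 0.360, 0.179 and 0.278 CPM against 6.35, 7.44 and 13.0 CPM, and the groups do not overlap. A count of 0 would allow up to 3 reads, which is between 0.178 and 0.295 CPM in these libraries before composition scaling, so the cold level is at or near that floor. The fitted log2 change of -4.98 ± 0.69 (edgeR adjusted p = 0.0329) is therefore imprecise. The model has 5 exons and 902 bp of exon on NW_011952093, from 775762 to 778055, and 224 of its 296 exon reads at 25 °C crossed a junction. It is the first of 5 neighbouring genes all lower in every cold pool as scaled here, described below with the trypsin-type gene Tryp_SPc1.

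LOC105386543 cannot be assigned to 1 locus with certainty, because 0.115% of its reads mapped uniquely. Its level was 1.96, 2.44 and 2.72 CPM in the 10 °C pools and 22.3, 15.3 and 32.5 CPM in the 25 °C pools, without overlap. Whatever copies gave these reads, their sum at this locus fell by 3.29 ± 0.37 on the log2 scale (edgeR adjusted p = 0.00961). The listed position is NW_011952163, 105193 to 107344, with 3 exons and 1278 bp of exon, and the listed type is protein coding.

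**Figure D2:**
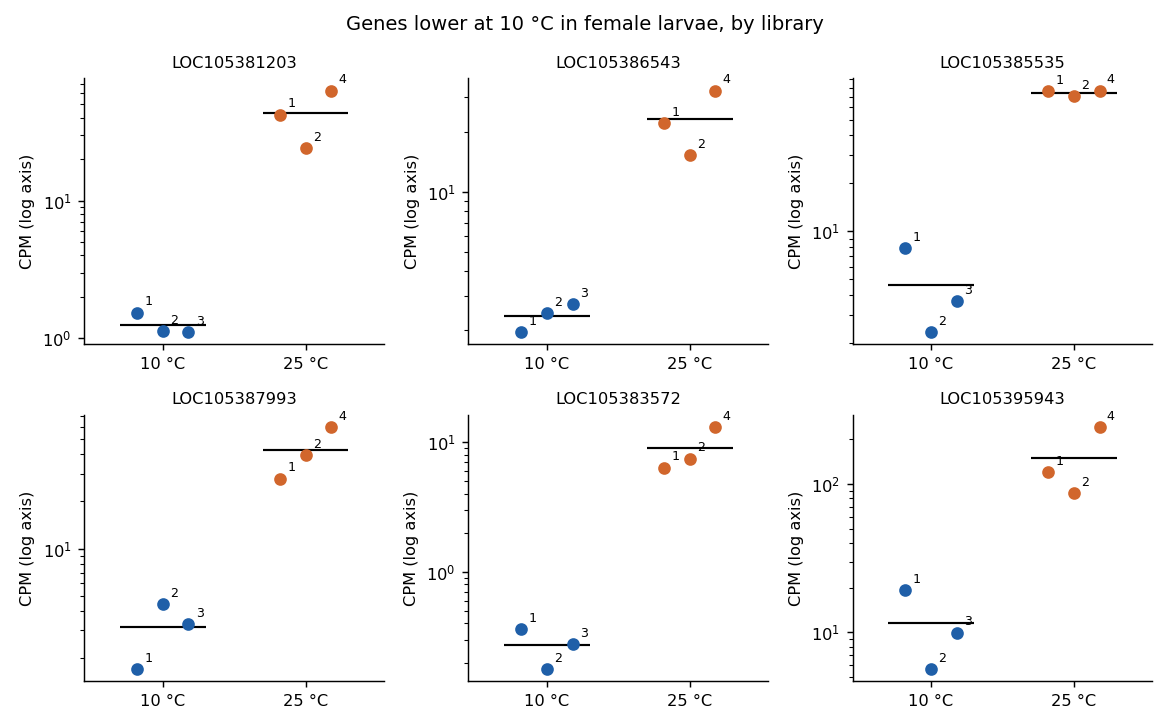
CPM of the 6 genes past the threshold, on log axes that differ between panels, with 1 point for each female library, its replicate number beside it and a bar at the group mean. In each panel the 3 cold pools (blue) lie below the 3 warm pools (orange), for LOC105381203 at 1.11 to 1.54 against 24.1 to 63.0 CPM.

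Most of these calls were lost in some of the fits with 1 female library left out. Such a fit also has fewer libraries in a group, and the reason for the losses was not tested. LOC105381203 kept its call when any 1 female library was left out, and LOC105385535 did in 4 of 6 such fits, losing it without cold replicate 2 or 3. LOC105386543, LOC105387993 and LOC105395943 kept theirs in 3 of 6, and LOC105383572 in 2 of 6. All 6 log2 changes stayed between -5.37 and -2.49 in every alternative fit run. Without female 10 °C replicates 2 and 3 the 6 values ran from -4.78 to -2.95 and none passed. Across all genes, the count of calls was 1 without cold replicate 2, 1 without cold replicate 3, 19 without warm replicate 1 and 23 without warm replicate 2.

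The libraries labelled male, which are other pools, gave values of the same sign for these 6 genes. All 3 male 10 °C libraries lay below all 3 male 25 °C libraries for 6 of the 6, beside 20.1% of all genes tested. LOC105381203 was at 1.26 to 1.80 CPM in males at 10 °C and at 59.0 to 99.3 CPM at 25 °C (log2 change -5.72 ± 0.45, edgeR adjusted p = 0.000442). For LOC105385535, LOC105383572 and LOC105395943 the male log2 changes were -2.69 ± 0.45, -3.54 ± 0.63 and -3.12 ± 0.51, each at an edgeR adjusted p of 0.0532. The other 2 of the 6, with LOC105381203, were the only genes past the threshold in males, 3 lower genes or 0.02% of those tested. Without the library labelled male 10 °C replicate 3, the male log2 changes of the 6 genes ran from -5.60 to -2.51, and 1 gene, LOC105381203, passed (edgeR adjusted p = 0.00923). The sexes share a fit and a spread for each gene, so the p-values of both are not independent.

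No gene passed the test on the higher side, and the 5 with the smallest p among genes whose groups stood apart are given as values. LOC105387485 was at 15.1, 23.8 and 14.2 CPM in 10 °C replicates 1, 2 and 3 and at 3.72, 1.96 and 5.17 CPM in 25 °C replicates 1, 2 and 4 (log2 change 2.30 ± 0.43, edgeR adjusted p = 0.126). Its neighbour LOC105387484, 139 bp away on the same strand, was at 19.6, 31.3 and 25.5 CPM against 8.43, 6.95 and 11.2 CPM (1.52 ± 0.32, edgeR adjusted p = 0.132). In both genes every cold pool was higher than every warm pool and cold replicate 2 was the highest. A single-exon gene on the other strand, LOC105387486, was at 8.50, 14.0 and 8.21 CPM against 0.766, 2.77 and 4.66 CPM, and since it overlaps LOC105387485 their reads cannot be told apart here. The next gene along, LOC105387483, had the opposite sign, at 37.2, 13.1 and 21.1 CPM in the cold pools and 73.0, 27.3 and 130 CPM in the warm pools. Those groups overlap.

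Of the other 3, LOC105384715 was at 8.96, 9.54 and 16.5 CPM at 10 °C and at 1.53, 2.77 and 2.02 CPM at 25 °C (2.45 ± 0.48, edgeR adjusted p = 0.130). Intron reads were 119 of 174, 58 of 160 and 54 of 298 of its reads in the cold pools and 14 of 14, 16 of 51 and 11 of 16 in the warm pools. Their share thus varied widely between pools of one group, and was above the share over all nuclear genes given below in each. LOC105388585 was at 10.4, 11.6 and 21.1 CPM against 3.72, 4.02 and 1.76 CPM (2.16 ± 0.44, edgeR adjusted p = 0.132). In males it stood at 26.8 to 30.6 CPM at 25 °C, above every female library, and its male log2 change was -0.73 ± 0.42. Its highest cold female level was in replicate 3, the female pool with the most male-high RNA. The part of male tissue in this value was not tested. Of its reads, 308 of 776 at 10 °C and 69 of 122 at 25 °C lay in introns, and 72.7% mapped uniquely. LOC105387547 was at 64.0, 93.7 and 71.9 CPM against 4.38, 24.2 and 16.1 CPM (2.36 ± 0.50, edgeR adjusted p = 0.132), but 3.92% of its reads mapped uniquely. Without cold replicates 2 and 3 the log2 changes of LOC105387485, LOC105387484, LOC105384715, LOC105388585 and LOC105387547 were 2.08, 1.15, 2.08, 1.70 and 2.10. With libraries scaled by their totals alone, LOC105387485 had a log2 change of 3.16 and passed (edgeR adjusted p = 0.0324).

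Many more genes stood apart between the groups than passed the test. All 3 cold pools were above all 3 warm pools for 1742 genes, 11.6% of those tested, and below them for 1373 genes, 9.14%. Of these, 336 were at least 4-fold higher and 335 at least 4-fold lower. Of the 1742 higher genes, 944 stood apart in the same direction in males, which is 54.2% of the female list and 24.2% of the male one, where 26.0% of all genes tested were higher. Of the 1373 lower genes, 654 did so, 47.6% of the female list and 21.6% of the male one, where 20.1% of all genes tested were lower. The opposite direction in males was seen for 45 of the higher genes (2.58%) and 8 of the lower ones (0.583%). Of the 374 male-high genes, 23 were among the higher 1742 and 0 among the lower. Without the library labelled male 10 °C replicate 3, 986 higher and 684 lower genes were shared, 56.6% and 49.8% of the female lists and 23.0% and 20.9% of the male ones. In males 28.6% of all genes tested then stood higher and 21.8% lower. Without cold replicates 2 and 3, where 1 library has to lie outside the 3 warm ones, 3087 genes stood higher (20.5%) and 2344 lower (15.6%).

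How many genes stood higher depended on the scaling. The composition factors of the TMM method, which scale each library by its typical gene, were 1.15, 1.65 and 1.38 in cold replicates 1, 2 and 3 and 0.861, 1.17 and 0.588 in warm replicates 1, 2 and 4. The 100 genes with the most reads took 41.8%, 37.0% and 36.2% of reads in the cold pools and 44.4%, 40.3% and 51.6% in the warm ones. Scaled by library totals alone, 3654 genes stood higher and 554 lower, and the median log2 change over the 15027 genes was 0.82 in place of 0.18. In that fit 5 genes passed, 1 higher and 4 lower, with 4 of the 6 genes above among them. In deposited TPM, 3532 genes stood higher and 403 lower. Small changes have a sign only relative to the chosen scaling, and the log2 changes given here are those under TMM.

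None of the 49 tested genes with a symbol passed, at edgeR adjusted p from 0.243 to 0.957. Of the 49, 36 had a negative and 13 a positive log2 change (median -0.72, beside 0.18 over all genes tested), and 9 stood lower and 0 higher in every cold pool, beside 9.14% lower and 11.6% higher over all genes tested. Scaled by library totals alone, 25 were negative and 24 positive. In that scaling the groups of Ast-a, PxAry1, PxAry2, Pxapn-a, Rps3 and hsp19.5 overlap. Those of Tctp, Tryp_SPc1 and pxgstu stay apart. Glucl, Ubx, actin, Gapdh, Hsp90 and ND5, whose groups overlap under TMM, stand higher in every cold pool on library totals alone. Without female 10 °C replicates 2 and 3 the median was -0.30, and all genes had a median of -0.04. Rdl-2, CSP3 and lOR18 had at most 17 reads in any female library and were not tested.

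**Figure D3:**
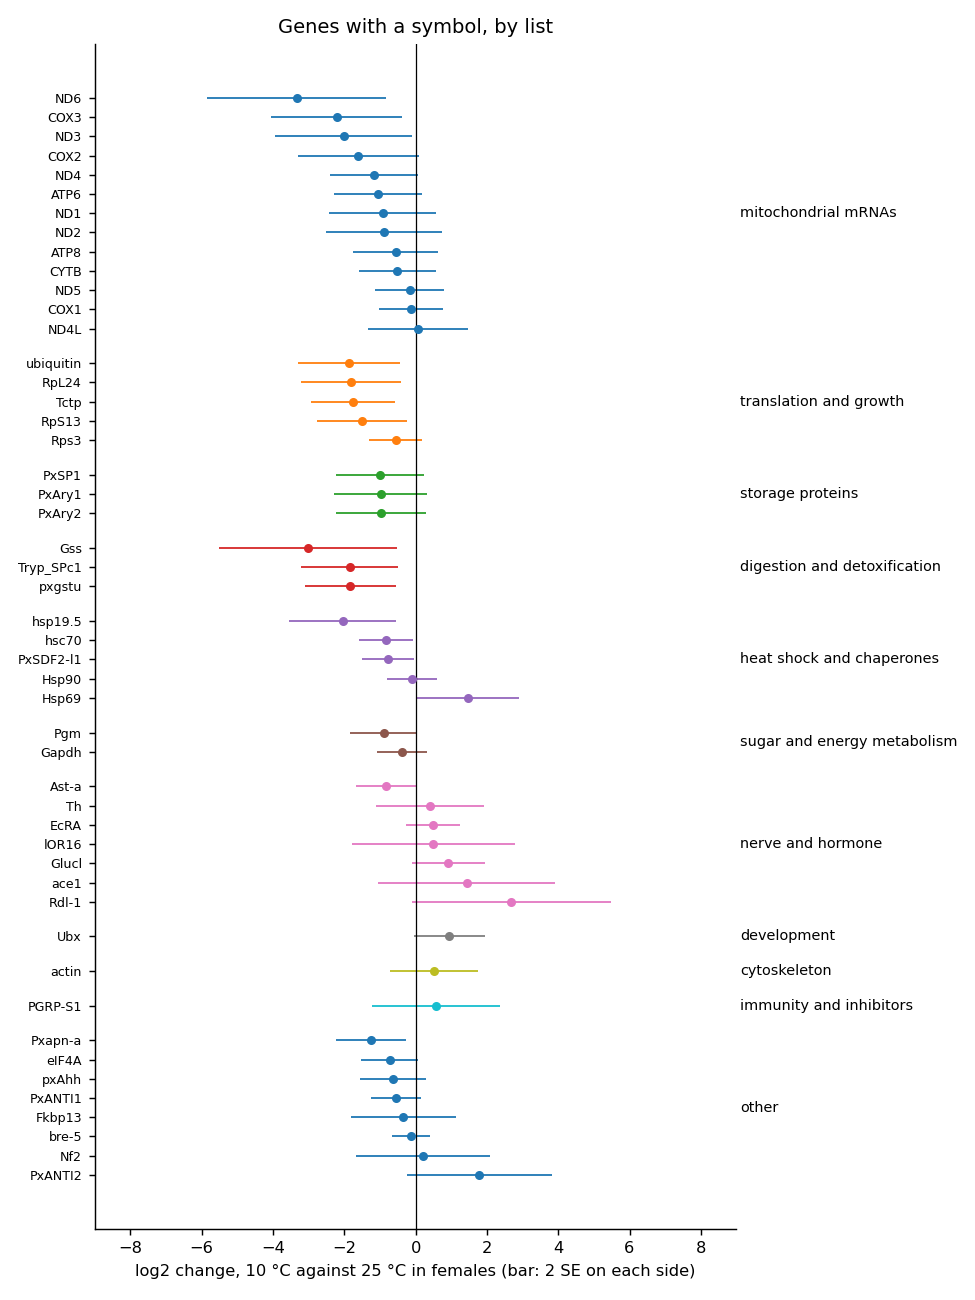
Log2 change at 10 °C against 25 °C in female larvae for the 49 tested genes with a symbol, grouped by list, with bars of 2 SE on each side. All 5 genes of translation and growth and 12 of the 13 mitochondrial mRNAs lie left of 0 under TMM scaling, and none passed the adjusted test.

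Genes of translation and growth had the most uniform negative values of the lists with 5 or more genes. For Tctp, a growth-related gene that is abundant in dividing cells, the levels were 1557, 471 and 1233 CPM in 10 °C replicates 1, 2 and 3 and 3180, 1747 and 6146 CPM in 25 °C replicates 1, 2 and 4. Its groups do not overlap, but cold replicate 1 and warm replicate 2 are close (log2 change -1.76 ± 0.59, edgeR adjusted p = 0.243). Rps3, a protein of the small ribosomal subunit, also stood lower in each cold pool, at 2081, 1065 and 1782 CPM against 2868, 2111 and 2290 CPM (-0.56 ± 0.37, edgeR adjusted p = 0.400). RpL24, of the large subunit, was at 1775, 501 and 1187 CPM against 3021, 1351 and 7645 CPM. Warm replicate 4 was far above the rest for RpL24, and the groups overlap. Of the 5 genes, 5 were negative, 2 stood lower in every cold pool (9.14% of all genes did) and the median was -1.76. It was -0.92 without warm replicate 4, -1.16 without cold replicates 2 and 3, and -0.95 on library totals alone, where Rps3 had 0.07.

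The 13 mitochondrial mRNAs encode subunits of the respiratory chain and of ATP synthase. Of these, 12 were negative and 1 positive (median -0.92), and 0 stood apart, beside 9.14% lower and 11.6% higher over all genes. No member thus separates the groups under TMM. The median was -0.20 without cold replicates 2 and 3 and -0.41 without warm replicate 4. COX3, a subunit of cytochrome c oxidase, was at 13917, 2897 and 7327 CPM in the cold pools and 21729, 8577 and 81082 CPM in the warm ones. COX1, of the same enzyme, was at 31367, 14315 and 22459 CPM against 23062, 22784 and 28683 CPM. Warm replicate 4 was far above all other pools for COX3 and below cold replicate 1 for COX1. As a share of gene reads, these mRNAs made up 9.38%, 4.53% and 7.01% in the cold pools and 6.92%, 5.96% and 11.4% in the warm pools. The means of 6.97 ± 2.43% and 8.08 ± 2.88% (SD, n = 3) differed by -1.10 percentage points, less than the spread between pools (two-sided exact permutation test, p = 0.7, where 0.1 is the smallest that 3 against 3 can give). The difference was 0.117 without cold replicate 2 and 0.533 without warm replicate 4, so its sign rested on single pools. On library totals alone 8 of the 13 mRNAs were negative and the median was -0.11. In that scaling ND5 stood higher in every cold pool, at 1583, 1058 and 1253 CPM against 791, 953 and 921 CPM.

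Heat shock and chaperone genes did not move together. The small heat shock gene hsp19.5 was at 66.6, 147 and 80.7 CPM in the cold pools and 216, 246 and 745 CPM in the warm pools, with every cold pool lower under TMM. Its levels in males, 49.9 to 334 CPM at 10 °C and 287 to 873 CPM at 25 °C, overlap. Hsp69, of the 70 kDa heat shock family, was at 36.3, 102 and 151 CPM against 21.2, 65.0 and 18.3 CPM, where cold replicate 1 lay below warm replicate 2 and the groups overlap. Hsp90, a chaperone of signalling proteins, was at 996, 902 and 1035 CPM against 850, 694 and 1592 CPM, with overlap through warm replicate 4. On library totals alone Hsp90 stood higher in every cold pool, at 1145, 1485 and 1428 CPM against 731, 812 and 935 CPM. The groups of hsp19.5 overlap in that scaling. The constitutive hsc70 was at 3012, 2548 and 3099 CPM against 5950, 6594 and 2861 CPM, so warm replicate 4 lay among the cold pools. Of the 5 genes, 4 were negative and 1 positive (median -0.77), 1 stood lower in every cold pool, beside 9.14% of all genes, and none passed (edgeR adjusted p from 0.251 to 0.882). Without cold replicates 2 and 3 the median was -0.48, and the log2 change of Hsp69, the lone positive gene, was 0.06 in place of 1.47. On library totals alone 3 were negative and the median was 0.0.

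The 3 genes for storage proteins, hexamers that the fat body releases into the blood and takes up again before pupation, had negative log2 changes, of which none passed (median -0.98). The arylphorin gene PxAry1 was at 10166, 4940 and 5272 CPM in the cold pools and 17546, 10788 and 11756 CPM in the warm ones, and PxAry2 at 9623, 5228 and 5057 CPM against 17043, 11083 and 11267 CPM. The pair ran in parallel over the 6 pools, with replicate 1 the highest in each group, and neither gene's groups overlap under TMM, though cold replicate 1 came close to warm replicate 2. On library totals alone the groups of both genes overlap, with warm replicate 4 the lowest of all pools. Their log2 changes were both -0.98, with an SE of 0.65 and 0.63, and neither passed (edgeR adjusted p = 0.408 and 0.390). PxSP1, another storage protein gene, was at 5416, 4455 and 832 CPM against 8510, 8845 and 4049 CPM. Its lowest value was in cold replicate 3, the pool with the highest level of male-high genes. In males PxSP1 was at 713 to 1198 CPM at 25 °C, below each female warm pool, and the part of male tissue in the female value was not tested. Without cold replicates 2 and 3 the median of the 3 genes was -0.39, and on library totals alone it was -0.36.

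Genes of digestion and detoxification were all negative, with 2 of 3 lower in every cold pool, beside 9.14% of all genes, and a median of -1.85. Tryp_SPc1, a serine protease gene of the trypsin type, was at 1852, 760 and 2433 CPM in the cold pools and 4371, 4671 and 9206 CPM in the warm pools (log2 change -1.85 ± 0.68, edgeR adjusted p = 0.249). The glutathione transferase gene pxgstu was low in all pools, at 0.515, 0.775 and 0.777 CPM against 1.86, 2.06 and 3.53 CPM. These values rest on 10, 13 and 14 reads in the cold pools and 17, 38 and 28 in the warm ones. Of the pxgstu reads, 20 of 37 at 10 °C and 23 of 83 at 25 °C lay in introns. Both genes separated the groups in females, whereas their male log2 changes were -0.09 ± 0.66 and -0.06 ± 0.62, and the difference between the sexes is not tested here. Gss, the glucosinolate sulfatase gene, was at 30.8, 17.9 and 45.0 CPM against 335, 407 and 10.7 CPM. Its groups overlap, with warm replicate 4 the lowest of all 6 pools (log2 change -3.01 ± 1.25, edgeR adjusted p = 0.276). In males Gss had the opposite sign, at 25.9 to 647 CPM at 10 °C and 6.42 to 16.6 CPM at 25 °C (4.34 ± 1.33, edgeR adjusted p = 0.0701). Pxapn-a, an aminopeptidase N gene of the gut membrane outside these lists, was at 43.4, 19.9 and 44.7 CPM against 81.6, 89.9 and 83.3 CPM, with even warm pools and no overlap under TMM (-1.24 ± 0.49, edgeR adjusted p = 0.263), but 45.1% of its reads mapped uniquely. On library totals alone its groups overlap, at 49.9, 32.7 and 61.6 CPM against 70.2, 105 and 48.9 CPM. The digestion list kept a median of -1.12 on library totals alone and -2.24 without cold replicates 2 and 3.

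Under TMM, genes of nerve and hormone were the only list of more than 1 gene with mostly positive values, 6 of 7 (median 0.50, 1.13 on library totals alone and 0.70 without cold replicates 2 and 3). Ast-a, which encodes the neuropeptide allatostatin A, was the exception. It was at 3.86, 3.16 and 4.66 CPM in the cold pools and 7.66, 6.52 and 6.43 CPM in the warm ones, with no overlap and a small spread under TMM (-0.82 ± 0.42, edgeR adjusted p = 0.321). On library totals alone its groups overlap, at 4.44, 5.20 and 6.43 CPM against 6.59, 7.63 and 3.77 CPM. The ecdysone receptor gene EcRA, which mediates moulting, was at 139, 337 and 170 CPM against 129, 215 and 120 CPM, and the Hox gene Ubx at 11.4, 20.4 and 9.38 CPM against 8.21, 10.3 and 2.77 CPM. Both overlap under TMM, with cold replicate 2 the highest. On library totals alone EcRA still overlaps, but Ubx does not, at 13.1, 33.6 and 12.9 CPM against 7.06, 12.0 and 1.63 CPM. Glucl also stood higher in every cold pool in that scaling, at 22.7, 52.0 and 24.7 CPM against 10.5, 21.7 and 3.40 CPM. The acetylcholinesterase gene ace1 and Rdl-1, a receptor for the transmitter GABA, were below 4 CPM in every female pool. So was lOR16, whose log2 change of 0.50 ± 1.14 is the TMM median of this list. Of the lOR16 reads, 43 of 47 at 10 °C and 23 of 23 at 25 °C lay in introns. Its sign changed in some alternative fits, such as without cold replicate 2 (-0.15) or without cold replicates 2 and 3 (-0.27). The log2 changes next to it in the list were 0.48 for EcRA and 0.92 for Glucl. In sugar and energy metabolism, Pgm was at 323, 121 and 258 CPM against 433, 196 and 676 CPM, also with overlap, and Gapdh had a log2 change of -0.38 ± 0.35. The median of the pair was -0.64, and -0.22 without cold replicates 2 and 3. Actin levels, from the gene of that symbol, were 9365, 6948 and 8156 CPM against 8670, 7191 and 1325 CPM, and its log2 change of 0.51 ± 0.62 was 0.02 without warm replicate 4. The steadiest gene with a symbol under TMM was bre-5, at 20.4, 22.2 and 21.8 CPM against 24.5, 21.2 and 25.0 CPM. On library totals alone bre-5 was at 23.5, 36.6 and 30.1 CPM against 21.1, 24.8 and 14.7 CPM. PxSDF2-l1 was steadier in that scaling, at 72.1, 61.7 and 76.8 CPM against 70.3, 66.3 and 74.5 CPM.

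Gene length moved with temperature in the female libraries. Over 4 equal classes of exon length, with limits of 1044, 1643 and 2567 bp, the median log2 change was -0.24, 0.02, 0.22 and 0.45 from the shortest to the longest class. Of the shortest genes 11.5% stood lower and 7.55% higher, and of the longest 4.50% stood lower and 15.5% higher. This rested on few pools. With the mean of each gene over the 6 libraries set to 0, the longest class was at 0.00, 0.58 and 0.10 in cold replicates 1, 2 and 3 and at -0.19, 0.10 and -0.53 in warm replicates 1, 2 and 4. Cold replicate 1 and warm replicate 2 were nearly flat, and cold replicate 2 and warm replicate 4 sloped in opposite directions. The translation genes have 569 to 883 bp of exon and fall in the shortest class, and with offsets that remove the length trend of each library their median was -1.32. Of the 6 genes past the threshold, 3 are in the longest class, and 5 passed with those offsets.

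**Figure D4:**
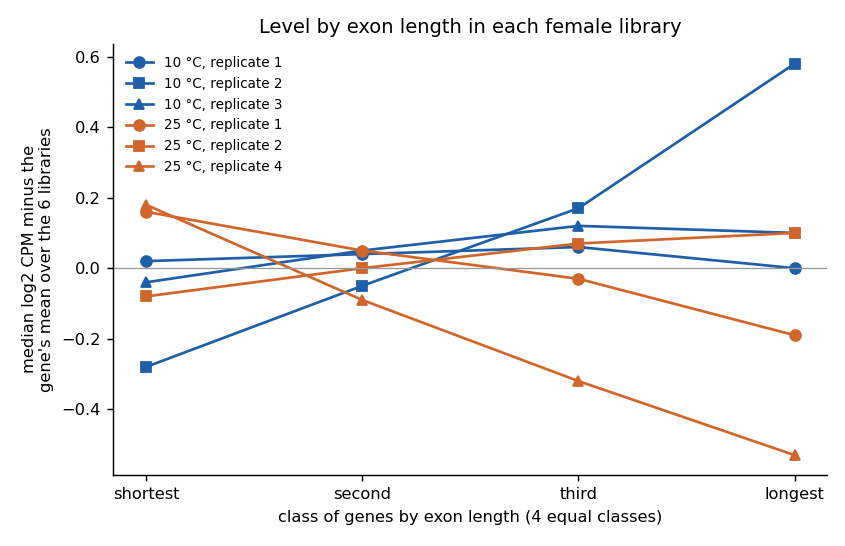
Median log2 CPM of each length class after subtracting the mean of each gene over the 6 female libraries, with 1 line for each library (blue at 10 °C, orange at 25 °C). The lines of cold replicate 2, from -0.28 to 0.58, and warm replicate 4, from 0.18 to -0.53, cross, while the others stay within 0.2 of 0.

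The share of intron reads was higher in each cold pool. Over nuclear genes, introns took 5.54%, 8.58% and 6.20% of gene reads in cold replicates 1, 2 and 3 and 4.15%, 5.13% and 4.19% in warm replicates 1, 2 and 4. The groups do not overlap, and cold replicate 1 alone also lies above each warm pool, though close to warm replicate 2. The means were 6.78 ± 1.60% and 4.49 ± 0.557% (SD, n = 3), and the difference of 2.28 percentage points had p = 0.1 in a two-sided exact permutation test, the smallest that 3 against 3 can give. The difference ran from 1.38 to 2.90 when 1 library was left out, and was 2.16 over genes with at least 90% uniquely mapped reads. Exon reads that crossed a junction made up 51.7% and 51.2% of exon reads on average (exact permutation p = 0.6). Many genes with a symbol had a low junction share in warm replicate 4. For PxAry1 the share was 12.2%, 18.9% and 0.768% in warm replicates 1, 2 and 4, and for PxSP1 14.7%, 19.3% and 1.70%. PxAry2, hsc70, Hsp90, Gapdh, Tryp_SPc1 and Th were also lowest in replicate 4 among the warm pools. Rps3 and Tctp were not, and for RpL24 the share was 97.9%, 98.0% and 98.0%. Over all nuclear genes it was 51.0%, 50.8% and 51.8% in these pools. The cause was not tested.

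Differences between pools of one temperature overlapped those between temperatures. The median absolute log2 difference over all tested genes, on log2(CPM + 0.5), was 0.70, 0.28 and 0.62 between the pairs of cold pools and 0.55, 0.75 and 1.06 between the pairs of warm pools. Between temperatures it ran from 0.38, for cold replicate 3 against warm replicate 2, to 1.53, for cold replicate 2 against warm replicate 4. The latter pair differed by over 4-fold in 36.8% of genes, and warm replicates 2 and 4, of the same group, in 20.0%. The warm pools spanned over 4-fold in 3560 genes (23.7%) and the cold pools in 1403 (9.34%). Warm replicate 4 was the farthest from the middle pool in 2280 of the 3560, and the lowest in 1602 of these. Of the 437 such genes in which cold replicate 1 was farthest, 226 were male-high genes. Warm replicate 4 also had the fewest genes with at least 10 reads, 10680, from 13510177 gene reads.

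Some genes that stood lower in the cold were neighbours. Counting consecutive tested genes on a scaffold, 17 runs of at least 4 genes stood lower in every cold pool, 80 genes in all, and 1 run of 4 genes stood higher. Shorter runs of 2 or 3 genes were 127 lower and 172 higher. All of these runs were counted under TMM. Runs were not counted on library totals alone, where 554 genes stood lower in place of 1373 and 3654 higher in place of 1742. Whether each run holds in that scaling was not tested. In 12 of the 17 lower runs over 90% of reads mapped uniquely, and 1 held a gene past the threshold. By the rule for a run, cold replicate 1 alone also lies outside the warm pools at each of its genes. The lower run with that gene begins with LOC105383572 and goes on with LOC105383571, Tryp_SPc1, LOC105383594 and LOC105383595 over 68.6 kb, with log2 changes of -4.98, -1.33, -1.85, -3.18 and -1.96. LOC105383594 was at 42.2, 10.9 and 43.7 CPM in the cold pools and 155, 111 and 610 CPM in the warm ones, so the 5 genes differ in level and in the size of the change.

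The longest run held 7 genes over 52.4 kb, from LOC105385789 to LOC105385816 on NW_011952145. Their summed level was 2818, 495 and 2902 CPM in cold replicates 1, 2 and 3 and 7247, 4087 and 9723 CPM in warm replicates 1, 2 and 4. Cold replicate 2 was the lowest, and the smallest edgeR adjusted p among them was 0.153. A run of 6 genes over 49.5 kb of NW_011952143 begins with LOC105385735, at 0.206, 0.238 and 0.722 CPM in the cold pools and 34.5, 4.45 and 39.9 CPM in the warm ones. It narrowly missed the threshold (log2 change -6.05 ± 0.93, edgeR adjusted p = 0.0606), and the 5 genes beside it had log2 changes between -1.90 and -1.64. Another run, from LOC105391598 to LOC105391603 on NW_011952350, held genes that were nearly silent in the cold. Its LOC105391591 had 0.0 CPM in all 3 cold pools and 3.83, 687 and 97.4 CPM in the warm pools (edgeR adjusted p = 0.238). The lone higher run, from LOC105398183 to LOC105398140 on NW_011952029, summed to 5722, 14319 and 6723 CPM in the cold pools and 3156, 4194 and 4409 CPM in the warm pools. No product names could be matched to these genes apart from Tryp_SPc1, so whether a run holds copies of a gene family is not given here.

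**Figure D5:**
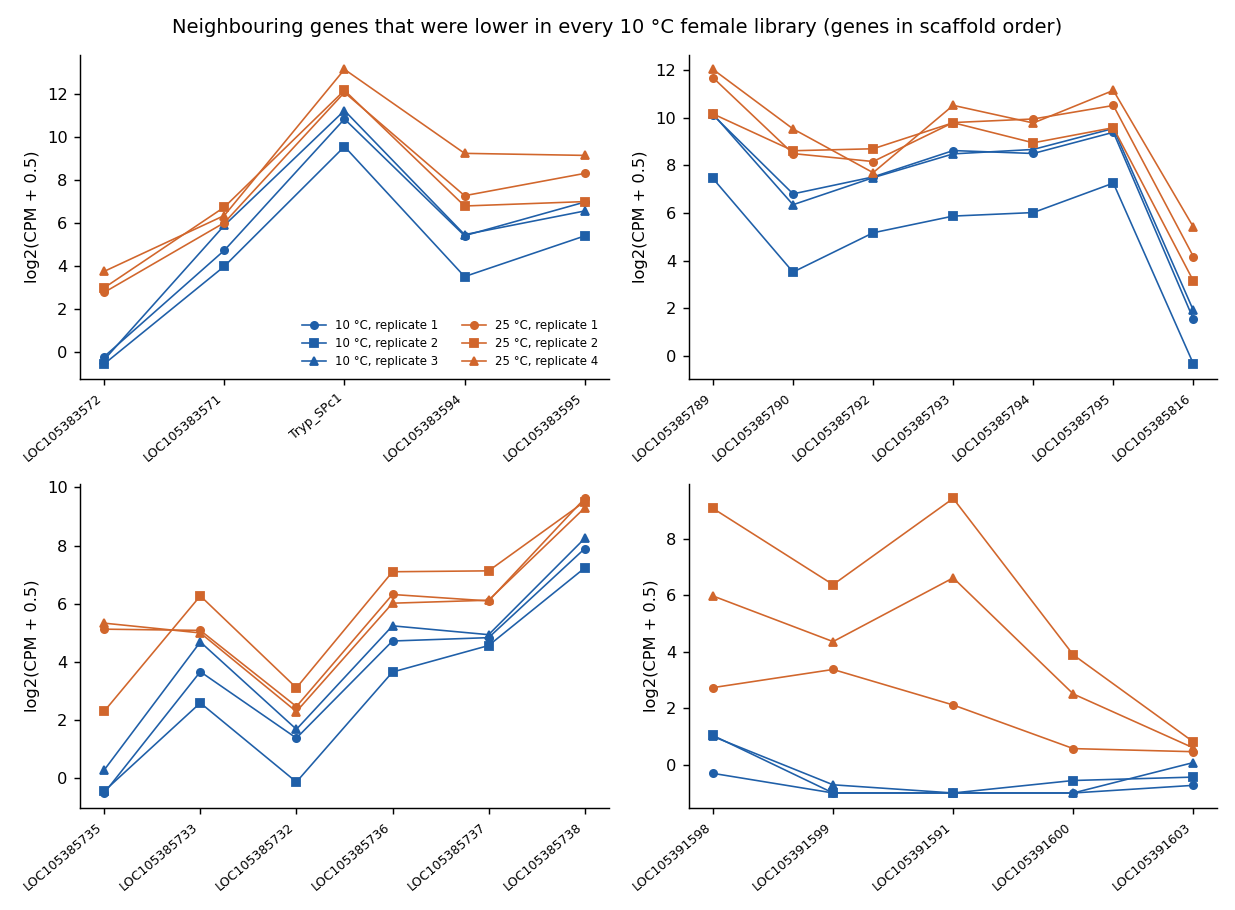
Level of each gene, as log2(CPM + 0.5), along 4 runs of neighbouring genes, in scaffold order, with 1 line for each library. Under TMM scaling the genes of these runs were lower in every cold female pool. Cold pools (blue) lie below warm pools (orange) at each gene, and the gap is widest at LOC105383572, LOC105385735 and in the run that begins with LOC105391598.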

How the data were processed

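Each table gives whole-number read counts for a gene as total, unique, exon, intron and junction reads, and TPM beside them, per the file headers. The total read counts deposited by the authors were the main values, and the deposited TPM values served only for levels per length. For the aligner, counter, genome build and use of strand the sources used here give nothing. Positions are those of the deposited tables. Of 18895 locus identifiers, 10698 were found in RefSeq genes of the assembly ilPluXylo3.1, used for symbols and types only.

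All 12 libraries were fitted with 4 group means in edgeR 4.0.16 (R 4.3.3), using TMM, the edgeR expression filter (minimum count 10, minimum total 15) and Benjamini-Hochberg adjustment. CPM are scaled by TMM, and SE is the log2 change over the root of F. Groups stand apart when no library of one overlaps the other. The fits were tested on simulated data. Shares of reads were compared by exact permutation tests with scipy 1.17.1. DESeq2 1.42.0, limma 3.58.1, other filters, scalings and left-out libraries were alternatives. Named genes are all called ones, all tested ones with a symbol, and the 5 with the smallest p in a direction with fewer than 5 calls whose groups stand apart and whose higher mean is at least 5 CPM. Members and lists were chosen with earlier results of these data known. Nothing beyond the word biological says how the pools are independent, so p-values measure the spread between pools. No pair of pools matched within counting error (mean chi-square per gene 68.3 or more). Reads were not marked by molecular identifiers, so floors cover counting error only.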

Additional observations from a re-analysis of the deposited data

How the results depend on the processing

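The count of 6 genes past the threshold in females changed with the test and the libraries. It was 742 with DESeq2 (217 higher, 525 lower), 1608 with limma voom and quality weights (670 and 938), 10 with no filter on low counts and 10 with male-high genes removed. It was 0 with the female libraries fitted alone, where 1532 genes had an unadjusted p below 0.05, and 0 without female 10 °C replicates 2 and 3, where 356 did. Leaving out 1 female library gave 1 to 23. With the replicate number as a block it was 1. Same-numbered pools deviated together with r = 0.08 for number 1 and 0.6 for number 2, and pools of different numbers with r from -0.52 to 0.39. With 2 shared numbers, and nothing in the labels that ties them, they were not treated as pairs. It was 6 with DESeq2 size factors, exon reads or a filter of 1 CPM, 9 with length offsets, 8 without male 10 °C libraries, 5 on uniquely mapped reads and 5 (1 higher, 4 lower) on library totals alone, a scaling chosen after seeing the data. The cause of these changes was not tested. The difference in mitochondrial share ran from -2.31 to 0.533 percentage points over single libraries left out and turned positive without female 10 °C replicate 2 (0.117) or female 25 °C replicate 4 (0.533). That in intron share ran from 1.38 to 2.90. Over named genes and settings, 1087 values kept direction and call, 36 lost a call, 23 gained 1 and 49 uncalled values changed sign, 11 of them on library totals alone, and no called value reversed. Voom and DESeq2 called 16 and 6 named genes that edgeR did not.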
